A study of Mus musculus with 2 samples.

Results

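The β-cell disallowed genes are genes that mature β-cells keep at very low levels although most other cells use them. Described here are 9 listed members, taken by symbol from the 22383 features of the count tables: Ldha, Ldhb, Slc16a1, Acot7, Oat, Mgst1, Igfbp4, Rest and Pdgfra. All 9 were found. The data come from single islet cells in 2 libraries, 1 per group, in which UMIs, molecular tags that each mark a captured transcript, were counted. The control mice, wildtype by genotype label, were Cre-negative littermates, and the mice labelled TBL/RBKO carried loxP-flanked Tbl1x and Tbl1xr1 together with Cre recombinase knocked in at Ins1, an insulin gene, so that recombination is directed to β-cells. All mice were of the C57BL/6N background. Each library held 150 islets pooled from 4 mice aged 5 weeks, cultured overnight in RPMI with serum before dissociation. A single library per group leaves no replicate error to compare a difference with, so no test is given, and every interval is a 95% interval that covers counting error only.

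Disallowed genes are best known from lactate metabolism. Lactate dehydrogenase, made of subunits encoded by Ldha and Ldhb, converts pyruvate to lactate, and the monocarboxylate transporter encoded by Slc16a1 carries both across the cell membrane. A β-cell that lacks them sends pyruvate to its mitochondria and does not release insulin when lactate or pyruvate rises in the blood during exercise. The other members serve different tasks: Acot7 encodes an acyl-CoA thioesterase, Oat the mitochondrial ornithine aminotransferase, Mgst1 a microsomal glutathione transferase, Igfbp4 a secreted protein that binds insulin-like growth factors, Rest a repressor of neuronal genes and Pdgfra a receptor for platelet-derived growth factors that marks stromal cells.

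Barcodes with more than 2500 detected genes and less than 10% mitochondrial UMIs were kept, with no upper limit on genes, which left 4747 control barcodes and 4179 of the library labelled TBL/RBKO. Each was placed in the class of its largest hormone (Ins1 with Ins2, Gcg, Sst or Ppy) if that reached 100 UMIs per 10000, and otherwise called non-hormone. The insulin class held 2877 control barcodes (182154305 UMIs) and 1338 of the other library (100976175 UMIs), the Gcg class 1284 and 1546, the Sst class 223 and 374, the Ppy class 259 and 495, and 104 and 426 barcodes were non-hormone. Median UMIs per insulin-class barcode were 53346 and 67897. All 9 β-cell markers listed reached 10 CPM (UMIs scaled to the total UMIs of the summed barcodes) in the insulin class of both libraries, but the insulin part of its UMIs was 49.6% in the control against 27.9% in the library labelled TBL/RBKO. The 2 libraries shared 14 barcode sequences. The control held 0 Cre UMIs and the other library 3247, whereas Tbl1x (96.9 and 351 CPM) and Tbl1xr1 (20.0 and 129 CPM) were higher in the insulin class of the library labelled TBL/RBKO, against its label. Where the tags of these genes lie relative to the loxP-flanked part is not given in the sources used here, so these tags do not check the deletion.

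On build GRCm39, in the GENCODE M39 annotation, the members lie as protein-coding genes with Ldha at chr7:46490899-46505061 (plus strand), Ldhb at chr6:142435672-142454586 (minus strand), Slc16a1 at chr3:104545811-104565780 (plus strand), Acot7 at chr4:152262136-152356313 (plus strand), Oat at chr7:132159153-132191517 (minus strand), Mgst1 at chr6:138117314-138133774 (plus strand), Igfbp4 at chr11:98932064-98945218 (plus strand), Rest at chr5:77408131-77434284 (plus strand), Pdgfra at chr5:75311994-75358876 (plus strand). The annotated span of Oat overlaps that of Fgfr2 on the same strand, and 3 named processed copies of Ldha and 1 of Ldhb exist, so reads of these 3 members could in part be shared with other loci.

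Of the 9 members, 8 had an entry in the RefSeq promoter table. Ldha and Mgst1 had 2 entries each, of which only the first is shown and was searched. The 250 bases before the transcription start are shown for the 4 members that were counted and at least 2-fold apart between the insulin classes, on build GRCm38.p6 and the plus strand, Ldha at chr7:46845554-46845803, Acot7 at chr4:152185358-152185607, Mgst1 at chr6:138140277-138140526, Igfbp4 at chr11:99040994-99041243. Capitals mark matches on either strand to any of 6 motifs. The first is CACGTG. The second motif, ACGTG, also lies inside the first. The next are GCGTG and the letters GGGCGG. The last are AGGTCA and the letters TATAAA.
Ldha: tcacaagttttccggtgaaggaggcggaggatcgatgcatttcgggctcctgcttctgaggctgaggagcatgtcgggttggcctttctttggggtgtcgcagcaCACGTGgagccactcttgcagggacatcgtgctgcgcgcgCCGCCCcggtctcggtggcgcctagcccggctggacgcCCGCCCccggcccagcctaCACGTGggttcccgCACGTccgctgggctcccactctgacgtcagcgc
Acot7: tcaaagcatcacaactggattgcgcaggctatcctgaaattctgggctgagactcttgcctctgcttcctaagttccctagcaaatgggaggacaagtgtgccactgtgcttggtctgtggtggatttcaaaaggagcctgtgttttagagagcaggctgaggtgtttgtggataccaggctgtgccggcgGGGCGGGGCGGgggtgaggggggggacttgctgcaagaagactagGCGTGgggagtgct
Mgst1: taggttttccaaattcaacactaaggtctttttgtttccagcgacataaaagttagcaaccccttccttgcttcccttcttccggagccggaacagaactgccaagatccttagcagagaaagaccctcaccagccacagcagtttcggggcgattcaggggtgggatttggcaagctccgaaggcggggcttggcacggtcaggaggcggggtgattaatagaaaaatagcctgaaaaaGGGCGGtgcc
Igfbp4: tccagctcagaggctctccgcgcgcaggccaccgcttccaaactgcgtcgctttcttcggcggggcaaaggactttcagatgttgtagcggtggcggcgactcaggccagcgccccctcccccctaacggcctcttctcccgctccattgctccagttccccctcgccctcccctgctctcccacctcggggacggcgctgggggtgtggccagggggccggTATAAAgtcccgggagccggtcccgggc
CACGTG stood 2 times in the Ldha window and in none of the other 3, and 6.02% of the 32851 promoters of the table held it. ACGTG outside these boxes was found 1 further time in Ldha. GGGCGG occurred 2 times each in Ldha and Acot7 (overlapping in Acot7) and 1 time in Mgst1, against 32.7% of all promoters with a match. GCGTG was met 1 time, in Acot7 (28.2% of all promoters), TATAAA 1 time, in Igfbp4 (12.4%), and AGGTCA in none of the 4 (14.0%). The GC content was 67.2% in Ldha and 69.2% in Igfbp4, and 56.4% in Acot7 and 52.0% in Mgst1, beside a median of 52.4% over the table. A match describes letters in these windows and not a bound site, and the 4 windows had no motif of the 6 in common.

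In control islets, 8 of the 9 members were far lower in the insulin class than in non-hormone barcodes, and Ldhb was the exception. Ldha measured 1.88 CPM (1.68 to 2.09) in the insulin class and 363 CPM (342 to 384) in non-hormone barcodes, a 193-fold difference. Rest was 154-fold higher in non-hormone barcodes (0.483 and 74.4 CPM), and Igfbp4 181-fold (0.132 and 23.8 CPM). For Slc16a1 the levels were 0.137 and 19.0 CPM, for Mgst1 0.209 and 25.5 CPM, and for Acot7 0.406 and 29.0 CPM. Oat had the smallest of these differences, 32.8-fold (2.26 and 74.1 CPM). Pdgfra was at 1 UMI in all 2877 control barcodes of the insulin class and at 34 UMIs in the 104 non-hormone barcodes. Ldhb, by contrast, measured 10.0 CPM (9.58 to 10.5) in the insulin class and 13.2 CPM (9.48 to 17.9) in non-hormone barcodes, and their intervals overlap. Scaled without hormones, Ldhb was lower in non-hormone barcodes, at 0.628 of its level in the insulin class, and the other folds shrank as well, to 92.1 for Ldha and 15.7 for Oat. Of all lactate dehydrogenase UMIs, those of Ldha were thus 15.8% (14.3 to 17.4%, exact binomial) in the control insulin class and 96.5% (95.3 to 97.5%) in non-hormone barcodes.

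**Figure D1:**
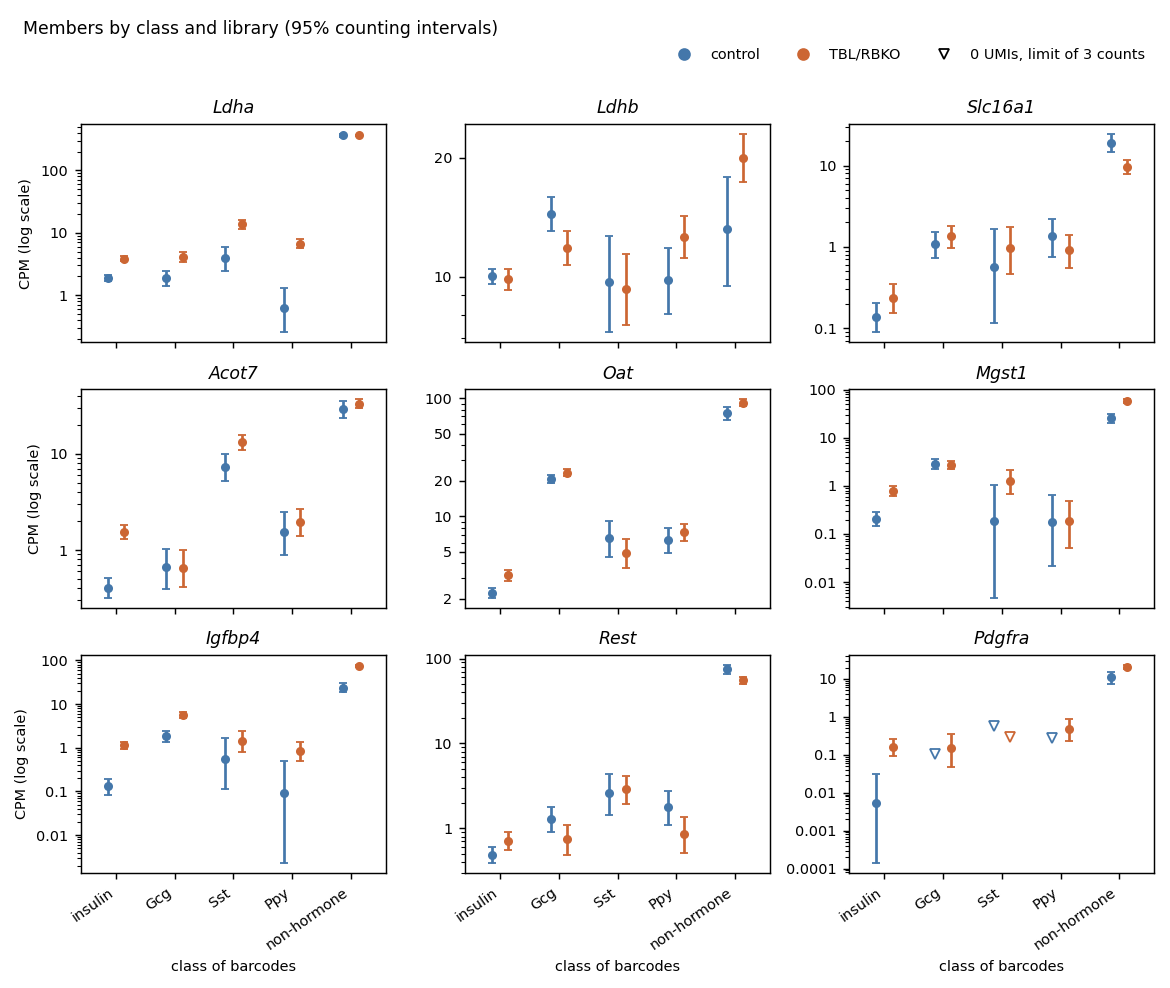
CPM of each member on a log axis in the 4 hormone classes and in non-hormone barcodes, for the control library and the library labelled TBL/RBKO. Points are summed UMIs as CPM, bars the exact Poisson 95% interval, and open triangles the limit that 0 UMIs allow (3 counts). Non-hormone barcodes lie highest for every member but Ldhb, which in the control is at 14.5 CPM in the Gcg class and 13.2 CPM in non-hormone barcodes. Ldhb spans the narrowest range, 9.34 to 20.0 CPM.

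The 4 hormone classes did not share one pattern. Oat stood highest of the hormone classes in the Gcg class, at 20.7 CPM (19.0 to 22.4) in the control and 23.4 CPM (21.8 to 25.1) in the other library, above the Sst class (6.53 and 4.91 CPM) and the Ppy class (6.31 and 7.34 CPM), whose intervals overlap in both libraries. Mgst1 was also highest in the Gcg class (2.85 and 2.74 CPM), 13.7-fold above the control insulin class. Acot7 was highest in the Sst class, at 7.28 CPM (39 UMIs) and 13.1 CPM (136 UMIs), while the Gcg class held 0.660 and 0.656 CPM. Slc16a1 was lowest in the insulin class (0.137 and 0.238 CPM). In the other 3 classes it lay between 0.560 and 1.35 CPM, with overlapping intervals within each library. Rest in the control was lowest in the insulin class (0.483 CPM), followed by the Gcg (1.29 CPM), Ppy (1.80 CPM) and Sst classes (2.61 CPM), and the intervals of the last 3 overlap. Ldha in the control was alike in the insulin and Gcg classes (1.88 CPM in each) and lower in the Ppy class (0.631 CPM, 0.254 to 1.30). That order was not kept without barcodes that hold markers of non-endocrine cells. Ldha was then at 0.349 CPM in the insulin class, 0.597 CPM in the Gcg class and 0.632 CPM (7 UMIs) in the Ppy class. The intervals of these values overlap. Ldhb held 14.5 CPM in the control Gcg class and 9.70 and 9.82 CPM in the Sst and Ppy classes. Because insulin takes a large part of the UMIs of its class, a member measures lower there on the CPM scale than on a scale without hormones, by the same factor for all members.

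Non-hormone barcodes were grouped by the marker list with most UMIs, where that reached 10 UMIs per 10000 from at least 3 genes. Macrophage markers led in 36 control barcodes and 52 of the library labelled TBL/RBKO, stromal markers in 27 and 97, and endothelial markers in 24 and 35, while 1 and 29 had ductal and 0 and 62 had B cell markers. Ldha was abundant in each, with 251 and 313 CPM in macrophage, 553 and 518 CPM in stromal and 218 and 171 CPM in endothelial barcodes. Pdgfra followed 1 group, with 37.4 and 55.0 CPM in stromal barcodes and 0 UMIs in macrophage and endothelial barcodes of both libraries. Igfbp4 was highest in the stromal group as well (66.1 and 184 CPM), and so was Oat (135 and 182 CPM). Rest reached 100 and 107 CPM in endothelial barcodes. Mgst1 measured 41.8 and 52.1 CPM in macrophage barcodes and 160 CPM in the 29 ductal barcodes. Over all non-hormone barcodes Ldha was at 363 CPM in each library (log2 ratio 0.00, -0.10 to 0.10), whereas Igfbp4 was higher in the library labelled TBL/RBKO (23.8 and 74.2 CPM, log2 ratio 1.64). Stromal barcodes were 27 of the 104 control non-hormone barcodes and 97 of the 426 in the other library. Within stromal barcodes alone the log2 ratio of Igfbp4 was 1.48 (1.10 to 1.88). The part of cell composition in these values was not tested.

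**Figure D2:**
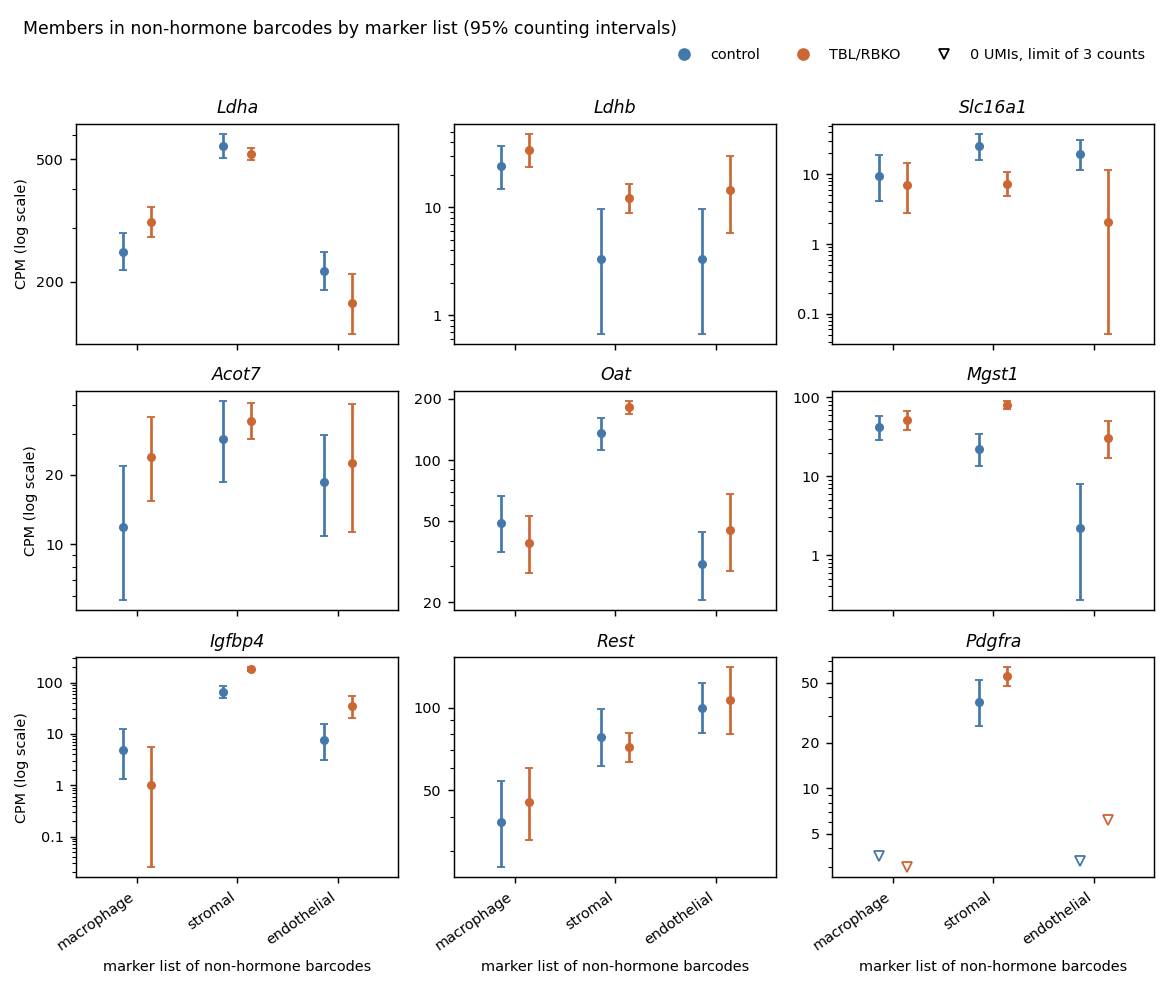
CPM of each member on a log axis in non-hormone barcodes of the macrophage, stromal and endothelial marker groups, for both libraries. Points are summed UMIs as CPM, bars the exact Poisson 95% interval, and open triangles 0 UMIs. Ldha ranges from 171 to 553 CPM over the sums, and Pdgfra was seen in stromal barcodes only.

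The main question was whether disallowed genes differ between the insulin classes of the 2 libraries. Of the 9 members, 7 had at least 50 UMIs in both insulin classes together and were counted. Of these, 4 were at least 2-fold higher in the library labelled TBL/RBKO, beside 12.5% of all 13938 genes counted, and 0 were at least 2-fold lower, beside 2.52%. The median log2 ratio was 1.04 over the 7 members and 0.31 over all genes. Scaled without hormones, Cre and mitochondrial genes, 3 members were higher, beside 6.40% of genes, and the medians were 0.55 and -0.18. The number higher was not stable. It was 0 of 4 with the study's limit of 6000 genes (median -0.32), beside 7.20% of all genes. It was 1 of 5 with single hormones (8.40%) and 2 of 7 without the highest doublet scores (12.3%). With equal weight for every barcode it was 2 of 7 (10.2%), and when thinned 0 of 3 (6.99%). It was 5 of 7 with the leading hormone at 500 UMIs per 10000 (13.4%) and 5 of 9 without the count filter (19.4%). Without barcodes that hold non-endocrine markers, ductal list not used, it was 5 of 7 (12.7%). The log2 ratios of Igfbp4 and Acot7 were above 0 in the insulin class as a whole under every other setting tried, with minima of 1.37 and 1.23 that rest on 20 and 23 UMIs, too few to be counted, whereas those of Ldha, Mgst1 and Rest were not.

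Igfbp4 had the largest ratio of the counted members. It held 24 UMIs (0.132 CPM) in the control insulin class and 116 UMIs (1.15 CPM) in the other library, a log2 ratio of 3.12 (2.48 to 3.82). Its UMIs lay in 16 and 48 barcodes, and the 10 barcodes with most of them held 75.0% and 59.5%. Acot7 had 74 UMIs (0.406 CPM) and 155 UMIs (1.54 CPM), a log2 ratio of 1.92 (1.51 to 2.34). They were spread more widely, over 61 and 100 barcodes. Mgst1 measured 38 UMIs (0.209 CPM) and 79 UMIs (0.782 CPM), with a log2 ratio of 1.91 (1.33 to 2.51), and 10 barcodes held 81.6% and 77.2% of them. A single control barcode contributed 16 of the 38 Mgst1 UMIs. Ldha had 342 UMIs (1.88 CPM) in 102 control barcodes and 389 UMIs (3.85 CPM) in 87 barcodes of the other library, a log2 ratio of 1.04 (0.82 to 1.25). Most insulin-class barcodes of both libraries thus had no Ldha UMI.

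The remaining members differed less or had few UMIs. Oat was at 2.26 and 3.16 CPM (log2 ratio 0.49, 0.27 to 0.70), and Rest at 0.483 and 0.713 CPM (0.56, 0.09 to 1.03). Ldhb was at 10.0 and 9.86 CPM, with a log2 ratio of -0.02 (-0.14 to 0.09). Scaled without hormones, Ldhb was lower in the library labelled TBL/RBKO (-0.51, -0.62 to -0.39), while the ratios of Oat (0.00, -0.21 to 0.22) and Rest (0.08, -0.39 to 0.54) had intervals that include equal levels. None of these 3 turned direction between the scales, but the size of the ratio, and whether its interval includes 0, did depend on the scale. Slc16a1 (25 and 24 UMIs) and Pdgfra (1 and 16 UMIs) were too rare to be counted. The Slc16a1 interval, -0.08 to 1.66, includes equal levels, and of the 16 Pdgfra UMIs 13 fell in barcodes with markers of non-endocrine cells.

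**Figure D3:**
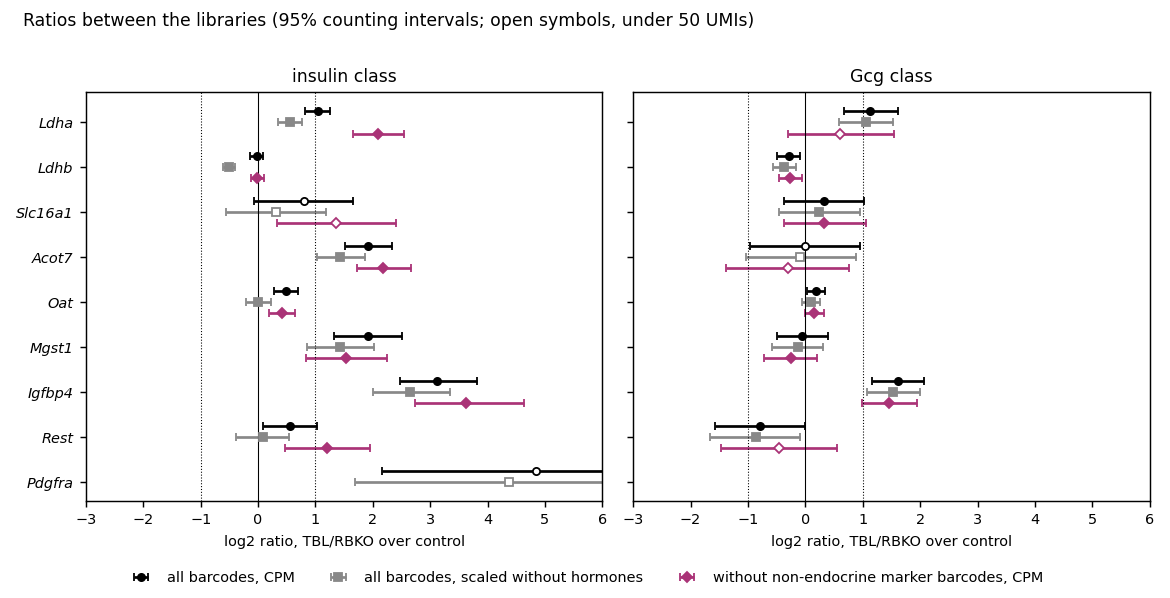
log2 ratio of CPM, library labelled TBL/RBKO over control, for each member in the insulin and Gcg classes, with exact 95% counting intervals. Circles are all barcodes, squares the same scaled without hormones, and diamonds without barcodes that hold non-endocrine markers, while open symbols mark fewer than 50 UMIs. In the insulin class Acot7, Mgst1 and Igfbp4 lie above 1 in all 3, Ldha moves from 1.04 to 0.55 and 2.09, and the upper end of the Pdgfra interval is cut by the axis.

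Part of these UMIs lay in barcodes with markers of other cells. In 66 control barcodes (2.29%) and 24 of the library labelled TBL/RBKO (1.79%) of the insulin class, markers of macrophage, stromal, endothelial or other non-endocrine cells reached 10 UMIs per 10000, the ductal list left aside because Krt7 and Krt18 were found in hormone classes of both libraries. Leaving that list aside was decided after the data had been seen. These few barcodes held 81.6% of the Ldha UMIs of the control insulin class and 62.2% in the other library, at 151 and 128 CPM. They also held 65.9% and 47.2% of the Rest UMIs, 12 of the 24 and 30.2% of the Igfbp4 UMIs, 25.7% and 11.6% of Acot7 and 23.7% and 41.8% of Mgst1. For Ldhb the share was 1.31% and 1.71%, close to the share of barcodes. The whole stromal list summed to 22.6 and 80.1 CPM in the insulin class, with 7 of 7 genes above 0 in both libraries, the macrophage list (7 of 7) to 72.1 and 24.0 CPM and the endothelial list (7 of 7) to 25.9 and 19.1 CPM. The ductal list (5 of 5) differed more, at 285 and 949 CPM, and reached 10 UMIs per 10000 in 24 and 438 barcodes. Krt19 of that list was at 1.12 and 63.6 CPM. The part of ductal markers in the Mgst1 values was not tested beyond the setting given next. Deposited barcodes under 1500 UMIs, which can hold free RNA, had 32.5 and 65.7 CPM Ldha, above its level in the insulin class. These barcodes held only 400457 and 441285 UMIs of all genes together, so both values rest on few Ldha UMIs.

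Without these barcodes all members but Ldhb were lower in both insulin classes, by unequal amounts. Ldha was at 63 UMIs (0.349 CPM) in 2811 control barcodes and 147 UMIs (1.48 CPM) in 1314 barcodes of the other library, so that its log2 ratio was 2.09 (1.65 to 2.54). Its part of all lactate dehydrogenase UMIs was then 3.38% (2.60 to 4.30%) and 13.1% (11.1 to 15.2%). Acot7 was at 0.305 and 1.38 CPM (log2 ratio 2.18, 1.72 to 2.66), Igfbp4 at 0.0666 and 0.817 CPM (3.62, 2.74 to 4.63) and Mgst1 at 0.161 and 0.464 CPM (1.53, 0.83 to 2.25). Rest was then at 0.166 and 0.384 CPM (1.20, 0.48 to 1.95) and Pdgfra at 0 and 3 UMIs. With the ductal list used as well, as planned, 2791 and 884 barcodes were left, and the log2 ratios were 1.22 for Ldha, 2.03 for Acot7, 3.19 for Igfbp4, 1.56 for Mgst1 (13 and 14 UMIs) and 0.94 for Rest. With the study's limit of 6000 genes, without the highest doublet scores, with equal weight for every barcode or with barcodes thinned to one depth, the log2 ratio of Ldha was below 0 instead (-0.20, -0.16, -0.41 and -0.05). Mgst1 was at -1.69, -0.19 and -0.12 in 3 of these 4 settings, from 33, 54 and 10 UMIs, and at 0.45 with equal weight. Rest was at -0.77 with the gene limit, -0.94 with equal weight and -1.70 when thinned. The cause of these turns was not tested.

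**Figure D4:**
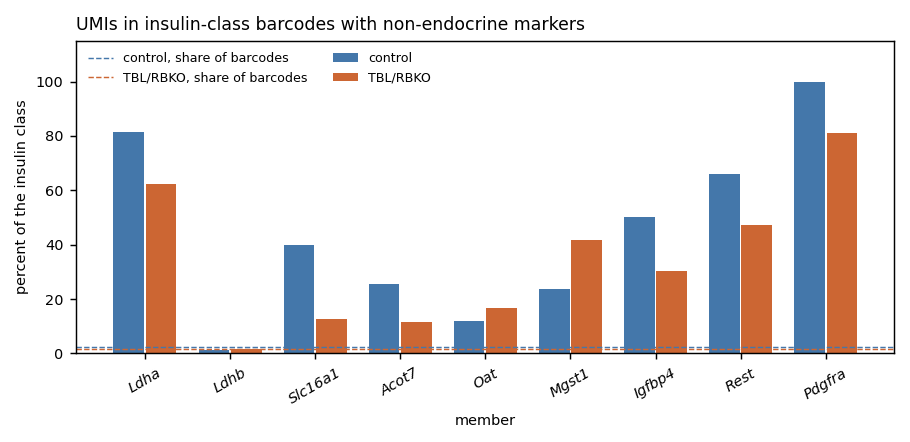
Percent of each member's UMIs in the insulin class that lie in barcodes with non-endocrine markers, for both libraries. Dashed lines give the share of insulin-class barcodes with such markers, 2.29% for the control and 1.79% for the library labelled TBL/RBKO. Ldhb sits at the dashed lines and Ldha at 81.6% and 62.2%, and the Pdgfra bars rest on 1 and 16 UMIs.

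Thinned to 5000 UMIs per barcode, few insulin-class barcodes held any member. A UMI of Ldhb was left in 4.83% and 5.16% of them, of Ldha in 1.46% (1.05 to 1.97%) and 1.64% (1.03 to 2.48%), of Oat in 1.36% and 1.49%, of Acot7 in 0.382% and 0.822% and of Igfbp4 in 0.139% and 0.448%. Rest went the other way, with 0.521% and 0.149%, and Slc16a1 was left in 2 and 0 barcodes. The intervals of the libraries overlap for each of these members. Unthinned, the shares were 3.55% and 6.50% for Ldha and 2.12% and 7.47% for Acot7, at unequal depth. In stromal barcodes thinned alike, Ldha was seen in 85.2% and 92.8%. At least 1 member other than Ldhb was present in 3.02% and 3.96% of thinned insulin-class barcodes, in 14.3% and 14.9% of the Gcg class and in 89.4% and 66.9% of non-hormone barcodes.

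Barcodes of the insulin class were split at 1000 and 3000 insulin UMIs per 10000, which gave 163, 152 and 2562 control barcodes and 243, 574 and 521 of the library labelled TBL/RBKO. Depth was unlike in the lowest range, with median UMIs of 9271 and 54089 and median genes of 3229 and 7291. In the middle range no second hormone reached 100 UMIs per 10000 in 27 of the 152 and 118 of the 574 barcodes. In the lowest range most members were lower in the library labelled TBL/RBKO. Ldha was at 106 and 10.3 CPM there (log2 ratio -3.37, -3.68 to -3.07), Rest at 21.8 and 2.14 CPM (-3.35), Oat at 21.8 and 4.48 CPM (-2.29), Mgst1 at 11.9 and 3.72 CPM (-1.67) and Acot7 at 7.12 and 3.10 CPM (-1.20, -2.07 to -0.25). Igfbp4 was at 5.22 and 2.90 CPM, with an interval that includes equal levels (-0.85, -1.83 to 0.26). With single hormones the lowest range gave -2.16 for Acot7, and Igfbp4 was at 11 and 0 UMIs there. In the middle range Ldha (0.48, -0.07 to 1.09) and Acot7 (0.10, -0.59 to 0.86) had intervals that include equal levels, Igfbp4 was higher (2.57) and Rest lower (-1.38). In the highest range Ldha (0.514 and 1.52 CPM, 1.57, 1.08 to 2.05), Igfbp4 (3.23, 2.16 to 4.39) and Acot7 (0.99, 0.11 to 1.82) were higher in the library labelled TBL/RBKO instead. These ratios are on the CPM scale. Without hormones, Cre and mitochondrial genes, 75570410 of 169196167 control UMIs and 21956566 of 42695578 in the other library were left there. Ratios of the highest range are lower on that scale, and the Acot7 interval then includes equal levels.

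The same ranges without barcodes that hold non-endocrine markers, a set chosen after the data had been seen, held 108, 147 and 2556 control barcodes and 236, 561 and 517 of the other library. Ldha then measured 6.70, 1.34 and 0.237 CPM from the lowest to the highest range in the control and 6.23, 0.844 and 0.544 CPM in the other library, with overlapping intervals in the lower 2 ranges and a log2 ratio of 1.20 (0.39 to 1.97) in the highest. The 9 Ldha UMIs of the lowest control range all came from 1 barcode. Acot7 was at 1 and 41 UMIs in the lowest range (1.96, -0.60 to 7.30), at 1.82 and 1.83 CPM in the middle one and at 0.208 and 0.426 CPM in the highest (1.04, 0.13 to 1.89). Igfbp4 was higher in the library labelled TBL/RBKO in the middle range (0.192 and 0.844 CPM, 2.14, 0.18 to 5.24) and in the highest (0.0593 and 0.260 CPM, 2.13, 0.76 to 3.53). In the lowest range Igfbp4 was at 0 and 34 UMIs, at least 1.08-fold higher against the limit of 3 counts in the control sum, and 1 barcode held 21 of the 34. Mgst1 in the lowest range (11.9 and 2.48 CPM, -2.27) rested on 1 control barcode with all 16 UMIs. Oat was lower in the middle range (4.50 and 2.86 CPM, -0.65). These ratios are also on the CPM scale, and without hormones the Acot7 interval of the highest range again includes equal levels. These ranges describe levels at like insulin share and are not cell types.

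**Figure D5:**
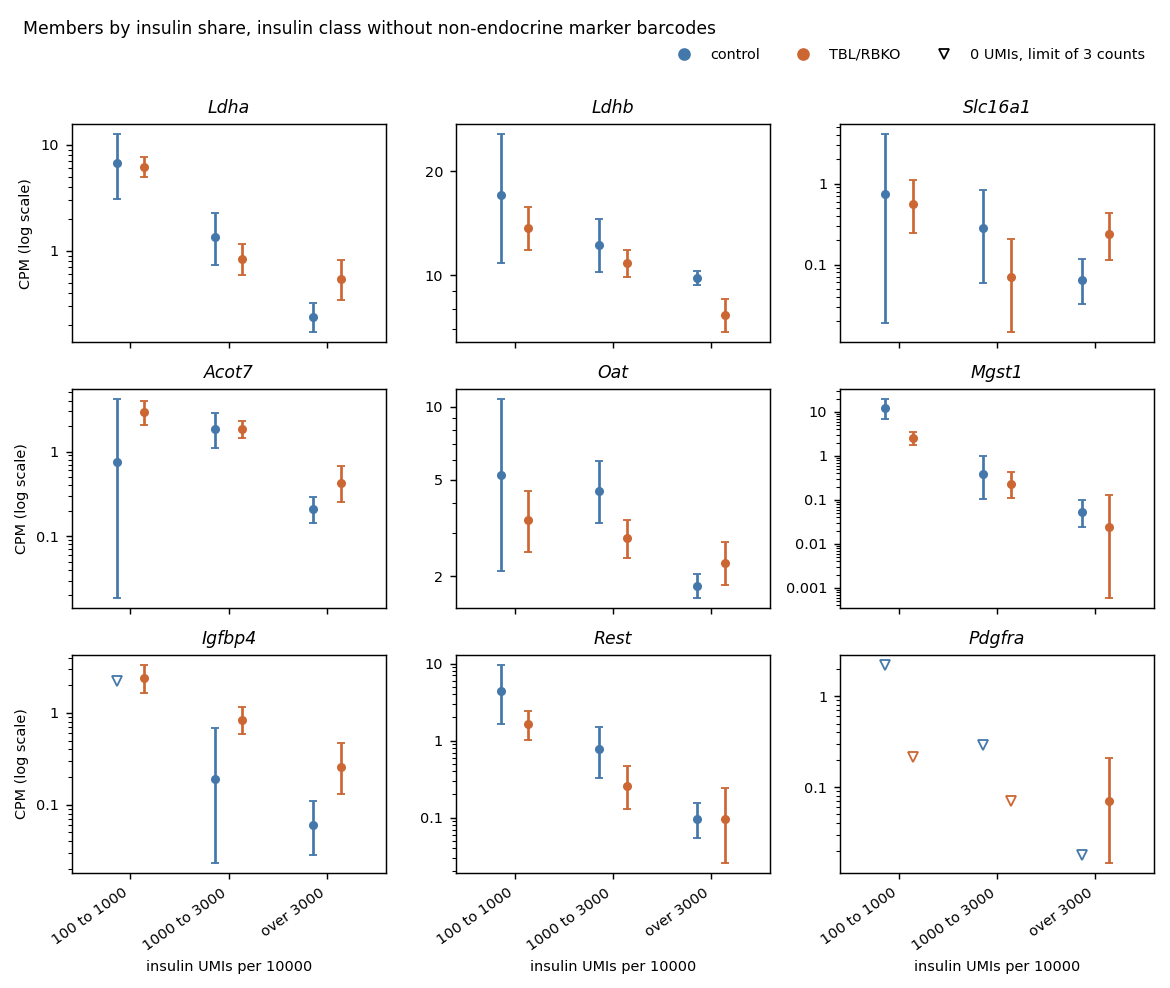
CPM of each member on a log axis in insulin-class barcodes with 100 to 1000, 1000 to 3000 and over 3000 insulin UMIs per 10000, barcodes with non-endocrine markers left out, for both libraries. Points are summed UMIs as CPM, bars the exact Poisson 95% interval, and open triangles 0 UMIs. Ldha, Oat, Mgst1 and Rest descend from left to right in both libraries, and Igfbp4 of the library labelled TBL/RBKO lies above the control in the upper 2 ranges.

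In a split chosen after the data had been seen, a second hormone marked insulin-class barcodes with more of some members. Acot7 was at 0.240 CPM (0.167 to 0.334) in control barcodes with insulin alone and at 2.04 CPM (1.45 to 2.81) where Sst also reached 100 UMIs per 10000, and at 0.711 and 4.85 CPM in the library labelled TBL/RBKO. Oat was at 1.65 CPM with insulin alone and at 6.17 CPM with Gcg in the control, and at 2.30 and 6.69 CPM in the other library. With Gcg, Igfbp4 differed most between the libraries. Its values with insulin alone and with Gcg were 0.110 and 0.249 CPM in the control and 0.492 and 3.42 CPM in the other library. Oat with Gcg and Acot7 with Sst, pairs picked after the data had been seen, are each high in the partner hormone's own class. Control Igfbp4 and Mgst1 were also higher in the Gcg class than in the insulin class (14.0-fold and 13.7-fold). Mgst1 is not given for this split, so no rule for the members follows. Doublets were not removed from these sums, and their part was not tested. Cre UMIs were present in 274 of the 1338 insulin-class barcodes of the library labelled TBL/RBKO, in which Ldha was at 1.61 CPM (1.14 to 2.20) against 4.56 CPM (4.10 to 5.07) in the other 1064. Igfbp4 was at 0.742 and 1.28 CPM and Acot7 at 1.07 and 1.68 CPM in these, both above the control at 0.132 and 0.406 CPM. Ldha in barcodes with a Cre UMI was not above its level in the control insulin class. Barcodes with non-endocrine markers, which held 62.2% of the Ldha UMIs of this class, were kept in the Cre split. A barcode without a Cre UMI may still have expressed Cre, since one transcript is easily missed.

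The other hormone classes gave a comparison for the same mice. In the Gcg class, 7 members were counted and 2 were at least 2-fold higher in the library labelled TBL/RBKO, beside 2.22% of 12627 genes, with 0 lower, beside 0.784%. They were Igfbp4 (1.84 and 5.60 CPM, log2 ratio 1.61, 1.16 to 2.07) and Ldha (1.88 and 4.11 CPM, 1.13, 0.67 to 1.61). Of the 138 Ldha UMIs in the latter, 108 lay in 9 barcodes with non-endocrine markers, and without such barcodes Ldha was at 0.597 and 0.904 CPM (0.60, -0.31 to 1.55). Igfbp4 was then still higher (1.72 and 4.70 CPM, 1.45, 0.98 to 1.94), and its UMIs lay in 37 and 109 barcodes. Ldhb was lower in that library (14.5 and 11.8 CPM, -0.29, -0.49 to -0.09), and Rest was at 1.29 and 0.745 CPM. In the Sst class 1 of 4 counted members was higher, beside 1.36% of genes, with 0 lower, beside 0.638%. It was Ldha, with 21 and 143 UMIs (3.92 and 13.8 CPM, 1.81, 1.15 to 2.55), and 12.9 CPM remained without barcodes with non-endocrine markers. A single barcode held 30 of these 143 UMIs. Acot7 was at 7.28 and 13.1 CPM in this class (0.85, 0.33 to 1.40), under 2-fold. In the Ppy class 1 of 4 was higher, beside 8.17% of genes, with 0 lower, beside 0.961%, and it was again Ldha (0.631 and 6.68 CPM). Without barcodes with non-endocrine markers, of which the library labelled TBL/RBKO had 5 in this class, Ldha was at 0.632 and 3.24 CPM, and 1 barcode held 33 of the remaining 67 UMIs.

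Related genes were counted in the insulin class by list. Among 10 further disallowed genes 2 were at least 2-fold higher and 0 lower. They were Cxcl12 (0.132 and 0.515 CPM) and Hk1 (0.730 and 1.59 CPM), which encodes a hexokinase of high glucose affinity. Cxcl12, a stromal chemokine, had a log2 ratio of 1.97 in all barcodes and -0.31 without those with non-endocrine markers, whereas Hk1 had 1.13 and 1.40. Scaled without hormones, 1 gene of this list was higher, beside 6.40% of all genes, and 2 were lower, beside 5.56%. The lower genes were Lmo4 (-1.44) and Maf (-1.28), which are named after their values were seen. Of 9 counted genes for lactate and pyruvate handling 2 were higher and 0 lower. Me1, the cytosolic malic enzyme, was at 23.3 and 92.3 CPM, and Slc16a7, a monocarboxylate transporter related to Slc16a1, at 2.43 and 5.23 CPM. Of 9 NADH shuttle genes 1 was higher and 0 lower, Gpd1 (8.11 and 58.1 CPM), the cytosolic glycerol-3-phosphate dehydrogenase, which regenerates NAD as lactate dehydrogenase does. Among 7 counted genes of the glutathione list 4 were higher and 0 lower, the largest being Gstp1 (57.0 and 608 CPM), Gclc (25.9 and 92.9 CPM) and Gclm (135 and 298 CPM).

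Of 8 genes for corepressors of REST, 0 were past 2-fold in either direction. Of 12 counted genes that REST represses in non-neuronal cells 1 was higher, Snap25 (174 and 409 CPM), and 1 lower, Vgf (13.2 and 6.45 CPM). Among 6 other thioesterase genes 0 passed 2-fold. Of 6 counted genes of ornithine and proline metabolism 2 were higher, Odc1 (34.6 and 100.1 CPM) and Arg1 (19.5 and 54.2 CPM), and 0 lower. Of 5 genes of the PDGF list 2 were higher, Pdgfc (0.423 and 3.93 CPM) and Pdgfrb (0.533 and 1.63 CPM), and 0 lower. Of 6 counted genes of the IGF axis 1 was higher, Igfbp5 (9.44 and 44.1 CPM), and 1 lower, Igf1 (1.02 and 0.406 CPM), whose log2 ratio was -1.32 in all barcodes and 0.86 without those with non-endocrine markers. These counts stand beside 12.5% of all genes higher and 2.52% lower, and read on a scale without hormones each log2 ratio is lower by the same amount. On that scale 6.40% of all genes are higher and 5.56% lower, and Hk1, Slc16a7, Snap25, Gclm, Gsr and Arg1 are under 2-fold.

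Over the 14 sums of 4 hormone classes and 3 marker groups in both libraries, the genes most like each member were listed among 6827 genes, by Pearson's r of log2(CPM + 1). The sums share libraries and depth, and r is a description. Ldha was most like Flna (r = 0.99), which encodes an actin-binding filamin, and Rest was most like Ciao2b (0.99). Pdgfra was most like Lox (r = 1.00), a collagen cross-linking enzyme, followed by Gpbar1 and Prrx2. Igfbp4 was most like Pcdh7 (0.96), Mgst1 like Myof (0.95), Acot7 like Mrpl58 (0.98) and Oat like Rplp1 (0.98). Ldhb had the lowest best value, 0.85 with Pnpla7.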

How the data were processed

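Islet cells were profiled with a droplet 3′ kit (Chromium v3.1). The authors deposited whole-number counts of UMIs per gene and barcode, not normalized, made with Cell Ranger 7.1.0 on GRCm39 (mm39) per the submitters' processing notes. The tables held 7067 control barcodes (241434108 UMIs) and 5833 of the library labelled TBL/RBKO (185062206 UMIs). Barcodes with more than 2500 genes and under 10% mitochondrial UMIs were classed by their leading hormone, and raw counts were summed by library and class and given as CPM. The leading hormone lay between 50 and 200 UMIs per 10000 in 190 and 180 barcodes. Levels carry exact Poisson, shares exact binomial and ratios exact conditional intervals at 95%. A gene was counted at 50 UMIs or more over both libraries, and called at 2-fold. A sum of 0 was read against a limit of 3 counts.

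The members and lists were chosen with earlier results of these data known. All 9 members were named, of each other list at most the 3 highest and the 3 lowest genes past 2-fold in the insulin class and Hk1, the targeted genes, and the most similar genes. The further disallowed genes are a list the study names. Doublets were kept, since Scrublet's automatic threshold marked 122 and 2 barcodes. An alternative left out the 334 and 231 barcodes of highest score. Other alternatives changed the scale, gene limit, hormone threshold, second hormones, marker barcodes, weighting, depth and count filter. The scripts were checked on simulated counts. Python 3.11.15, numpy 2.4.6, scipy 1.17.1, pandas 2.3.3, scanpy 1.11.5 and matplotlib 3.10.9 were used. Gene positions came from GENCODE M39 and promoters from RefSeq.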

Additional observations from a re-analysis of the deposited data

Results flagged for a closer look

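Ratios of opposite sign in 2 hormone classes drew attention to 2 members, and the difference between the classes was not tested in either. Rest had a log2 ratio of 0.56 in the insulin class (0.483 and 0.713 CPM) and of -0.79 in the Gcg class (1.29 and 0.745 CPM, interval -1.58 to -0.02). Without barcodes with non-endocrine markers the Rest ratios were 1.20 and -0.46. The signs were not opposite with the limit of 6000 genes (-0.77 and -1.38), as a mean over barcodes (-0.94 and -1.27) or when thinned (-1.70 and -2.08), where Rest was below 0 in both classes. Ldhb had a log2 ratio of 0.36 in the Ppy class (9.82 and 12.6 CPM) and of -0.29 in the Gcg class (14.5 and 11.8 CPM). Scaled without hormones the Ldhb ratios were 0.10 and -0.37, and with the limit of 6000 genes 0.05 and -0.48. When thinned, Ldhb was below 0 in both classes (-0.32 and -0.57), so its opposite signs were not kept there. Each value rests on 1 library per group.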

How the results depend on the processing

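The number of members at least 2-fold higher in the insulin class was 4 as reported. With fewer than 6000 detected genes it was 0, beside 7.20% of all genes higher. With each other hormone under 100 UMIs per 10000 it was 1 (8.40%). Without the highest Scrublet scores it was 2 (12.3%), and as a mean over barcodes also 2 (10.2%). With barcodes thinned to 5000 UMIs it was 0 (6.99%). It was 5 with the leading hormone at 500 UMIs per 10000 (13.4%) and without the count filter (19.4%). Without marker barcodes it was 3 with the ductal list used, as planned (11.3%), and 5 with that list not used (12.7%). In the Gcg class the number higher was 2 as reported. It was 1 with the leading hormone at 500 UMIs per 10000, with single hormones, as a mean over barcodes and when thinned. It was also 1 without marker barcodes by each of 3 definitions. The share of all genes higher lay between 1.22% and 2.05% in these settings. The number lower, 0 as reported, was 1 as a mean over barcodes, beside 0.792% of genes. Fewer members reached the count filter under several of these, 4 of 9 with the gene limit and 3 when thinned. The log2 ratio of Ldha in the insulin class turned to -0.20 (gene limit), -0.16 (Scrublet), -0.41 (mean) and -0.053 (thinned), and that of Mgst1 to -1.69 (gene limit), -0.19 (Scrublet) and -0.12 (thinned). Ldha in the Gcg class turned to -0.041 without marker barcodes, ductal list included. The cause was not tested. Of 340 member ratios under the alternatives, 267 lay within the interval of the reported ratio and 49 had the opposite sign, most of them where that ratio was under 2-fold or rested on few UMIs. The 267 include the ratios without the count filter, which equal the reported ones because that setting changes only which genes are counted. Marker barcodes without the ductal list, or at 3 UMIs per 10000, were chosen after seeing the data. No paired analysis was possible because each group had a single library. Members with under 50 UMIs, such as Slc16a1 and Pdgfra in the insulin class, are limited by depth.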
